A study of Mus musculus with 18 samples.

Results

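Notch ligands, receptors and targets were followed as 9 genes in RNA from 3 vascular beds of the mouse. They were chosen by name: the ligands Dll4, Jag1 and Jag2, the receptors Notch1, Notch2 and Notch4, the DNA-binding effector Rbpj and the target genes Hes1 and Hey1. All 9 were listed in the choroid, retina and brain tables, among 14068 genes listed in at least 1 table and 10505 listed in all 3. Each of the 18 libraries came from mice with the genotype Tie2-cre+; NuTRAP+. The Tie2 promoter drives Cre in endothelium and in blood-lineage cells as well, and after recombination the NuTRAP allele marks ribosomes with GFP. An antibody to GFP then pulls down tagged ribosomes with their mRNA (translating ribosome affinity purification), which gave the positive fraction. The input was set aside from the same cleared lysate. Choroid (scraped together with retinal pigment epithelium, RPE), retina and brain each had 3 input and 3 positive libraries, numbered 421, 953 and 960. Choroid and retina samples pooled both eyes, and a brain sample was part of 1 brain. The sources used here give neither age nor sex.

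Notch receptors are cell-surface proteins that are cut by ADAM proteases and gamma-secretase when a ligand on a neighbouring cell binds them. The freed intracellular domain joins RBPJ on DNA and turns on target genes, among them the HES and HEY repressors. In blood vessels, DLL4 and NOTCH signalling restrains sprouting and is known for its part in arterial identity, while JAG1 is also made by many cells outside the endothelium.

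Endothelial RNA was more concentrated in the positive fractions. Of 18 endothelial markers, all 18 were higher in choroid and brain and 17 in retina, with median log2 ratios of 3.43, 5.37 and 6.25. Of all genes, 21.1% were called higher in choroid, 18% in retina and 21.2% in brain. Genes were listed only where every library of either the input or the positive fraction passed a count minimum. A marker low in the inputs could thus be listed only by being high in the positives, so counts of endothelial and leukocyte markers are descriptions only. Leukocyte and microglia markers were also higher, 11 of 12 in choroid, all 10 listed of 12 in retina and 12 of 12 in brain. Their summed level was 2028 to 3603 CPM in choroid inputs and 18780 to 27020 CPM in choroid positives. It was 404.4 to 597.8 CPM in brain inputs and 5469 to 7097 CPM in brain positives, and 40.2 to 48.5 CPM in retina inputs and 240.7 to 1039 CPM in retina positives. CPM are counts per 1000000 library counts after TMM scaling, within a tissue for these marker sums and over all 18 libraries for the Notch genes. Retina positives still held 24750 to 39960 CPM of 9 rod markers. Library totals over listed genes ran from 2649095 to 32064355 counts, lowest in choroid positives. Some libraries stood apart, among them choroid input 421, brain input 960 and retina positive 421. Choroid input 421 held 5184 CPM of oligodendrocyte markers against 197.8 and 293.5 CPM in the other choroid inputs. Brain input 960 correlated at 0.892 and 0.894 with the other brain inputs, across 10505 genes, against 0.996 between those. Retina positive 421 held 458.3 CPM of mural cell markers against 55.5 and 42.3 CPM. Choroid positives were uneven too, with 96.9 to 1518 CPM of oligodendrocyte markers and 114.1 to 1810 CPM of rod markers. Choroid positive 421 correlated at 0.932 and 0.931 with the other choroid positives, against 0.951 between those.

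The promoters of 4 genes are shown because they span the responses described below: Dll4 and Notch4 had the steepest enrichment of the members, Notch2 was lower in choroid positives, and Hey2 is a target gene outside the 9 members. Each run covers 250 bases before to 50 after the RefSeq start (GRCm38.p6), 5′ to 3′ on the gene's strand. Capitals mark 4 motifs searched on both strands: TGGGAA (the RBPJ core), GGGCGG (a GC box), CGGAAG (an ETS core) and TGANTCA (AP-1). No capital stretch in these 4 runs overlaps another. The positions are chr2:119325534-119325833 (plus strand) for Dll4, chr17:34564045-34564344 (plus) for Notch4, chr3:98013288-98013587 (plus) for Notch2 and chr10:30842734-30843033 (minus) for Hey2.
Dll4: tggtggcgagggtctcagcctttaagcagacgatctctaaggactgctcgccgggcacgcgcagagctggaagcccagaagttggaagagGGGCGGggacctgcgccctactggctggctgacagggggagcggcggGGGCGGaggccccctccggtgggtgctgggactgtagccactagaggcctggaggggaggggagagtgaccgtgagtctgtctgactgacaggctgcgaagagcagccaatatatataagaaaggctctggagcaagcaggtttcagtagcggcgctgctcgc
Notch4: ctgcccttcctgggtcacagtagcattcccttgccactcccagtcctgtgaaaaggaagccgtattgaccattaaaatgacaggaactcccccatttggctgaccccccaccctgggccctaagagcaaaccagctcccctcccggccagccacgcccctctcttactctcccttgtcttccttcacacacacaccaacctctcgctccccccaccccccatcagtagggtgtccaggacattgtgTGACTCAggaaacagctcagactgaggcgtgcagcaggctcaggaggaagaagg
Notch2: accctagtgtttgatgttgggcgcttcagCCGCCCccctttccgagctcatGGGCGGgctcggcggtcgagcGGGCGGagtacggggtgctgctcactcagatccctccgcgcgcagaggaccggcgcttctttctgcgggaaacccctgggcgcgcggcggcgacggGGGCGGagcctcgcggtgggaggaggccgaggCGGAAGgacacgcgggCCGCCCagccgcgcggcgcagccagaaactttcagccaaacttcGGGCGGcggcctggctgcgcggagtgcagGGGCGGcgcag
Hey2: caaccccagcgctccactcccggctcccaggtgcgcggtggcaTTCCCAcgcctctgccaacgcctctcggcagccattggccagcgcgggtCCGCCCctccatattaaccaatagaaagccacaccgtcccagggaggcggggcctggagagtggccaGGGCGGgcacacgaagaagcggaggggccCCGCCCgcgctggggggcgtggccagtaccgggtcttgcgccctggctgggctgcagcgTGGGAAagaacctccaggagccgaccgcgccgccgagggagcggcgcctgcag
Of the 9 members 7 were matched in the RefSeq promoter table, all but Hes1 and Hey1. The RBPJ core was present in 25.6% of all 32851 promoter windows of this length. Among the members it was found only at the listed starts of Rbpj, with 2 and 1 matches in windows that overlap each other. Of the other pathway genes searched, Hey2, Hes5 and Lfng had 2 matches each, and Nrarp and Notch3 had 0. The GC box was present in 35.7% of windows and had 7 matches in Notch2, 5 in Notch1, 5 in Jag2 (1 of them overlapping another) and 2 in Dll4. Notch4 held the AP-1 letters once, as 7.8% of windows did at least once, and Notch2 held the ETS core once, against 16.9% of windows. CpG counts were 5 for Notch4, 17 for Dll4, 41 for Notch2 and 63 for Jag2, against a median of 7 over all windows. These are matches of letters only.

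In each tissue 6 of the 9 members were higher in the positive fraction, at an adjusted p under 0.05. Dll4, Notch4, Jag2, Notch1 and Hes1 were among the 6 in choroid, retina and brain. The sixth was Hey1 in choroid and retina and Jag1 in brain. Notch2 was lower in choroid. The background was high: 21.1% of all genes were called higher in choroid, 18% in retina and 21.2% in brain, and 20.9% were called lower in choroid. The members' median log2 ratios were 2.09, 1.24 and 1.68, and those of all genes were -0.03, -0.01 and -0.07. A table lists a gene where all libraries of at least 1 fraction hold 50 or more counts. Dll4 in retina and brain, Notch4 in retina and Jag1 in brain passed only through the positive fraction, so they could be listed there only by being high in the positives, and these counts and medians are descriptions only. Values below are log2 ratios with standard errors from edgeR, and adjusted p values are over all genes of a table. Replicates are numbered samples and the adjusted p values measure only the spread between them. The main fits leave out the pairing of an input with the positive of the same number. Whether fractions overlap is given per gene as a description, since the share of all genes without overlap was not counted.

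**Figure D1:**
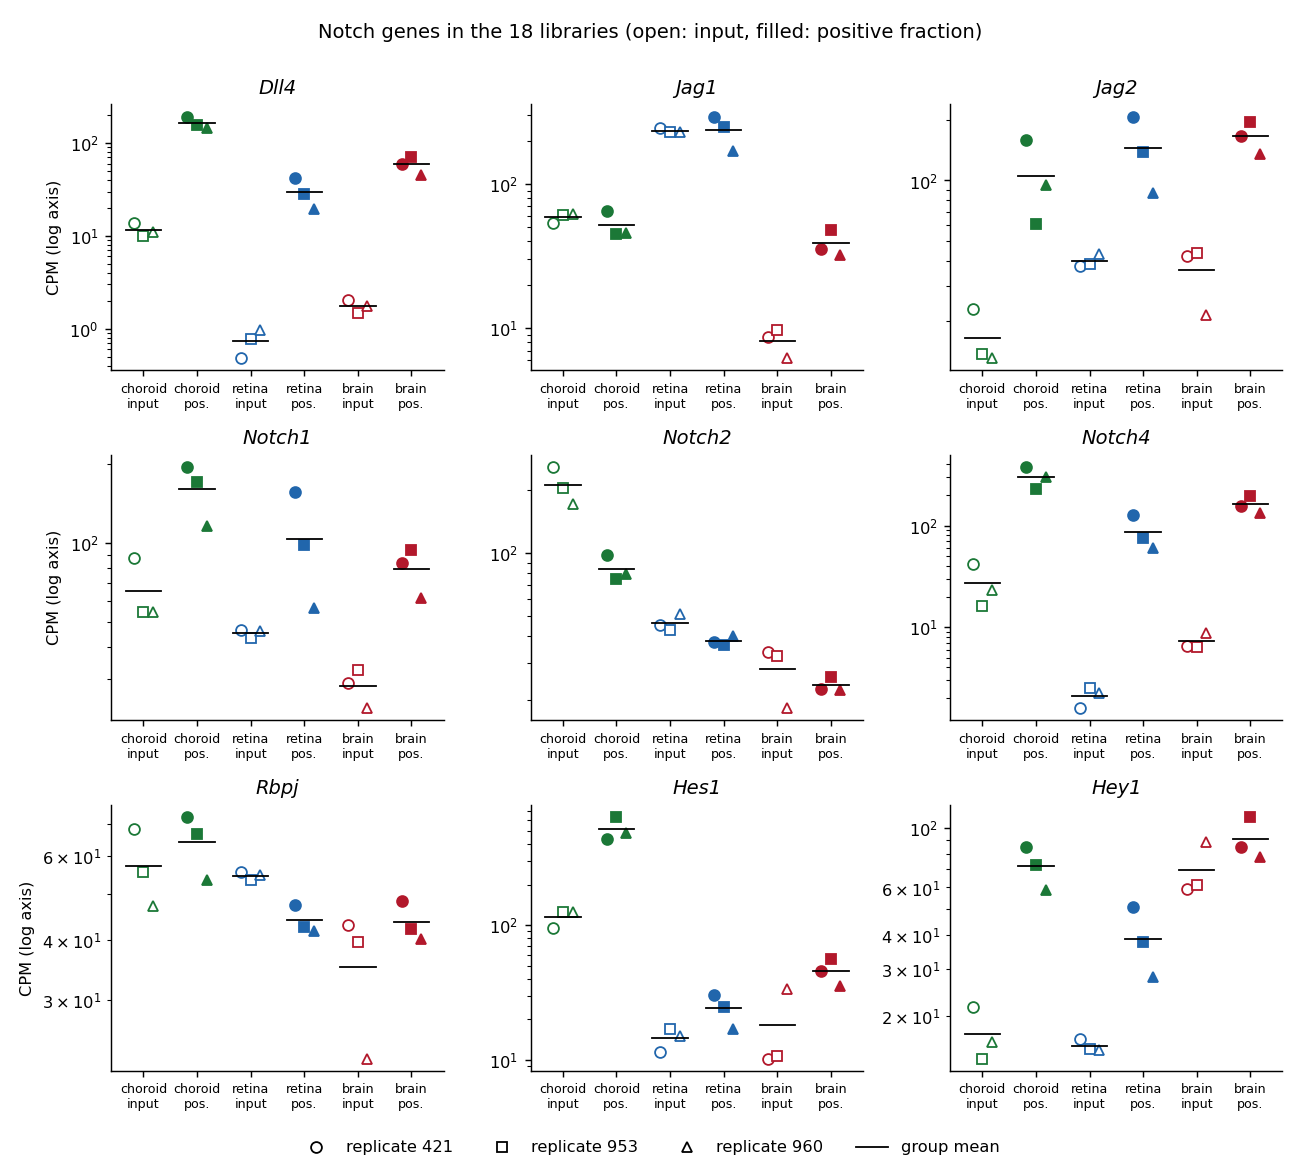
Level of each Notch gene in the 18 libraries, in CPM on a log axis that differs between panels. Open symbols are inputs, filled symbols positive fractions, shapes the 3 replicates, and bars the group means. Dll4, Notch4, Jag2, Notch1 and Hes1 positives lie above the inputs of the same tissue in all 3 tissues, Hes1 only just in retina and brain. Notch2 positives lie below the inputs in choroid and retina.

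Dll4, the ligand that endothelial cells present to their neighbours (chromosome 2, 119325784 to 119335666, mm10), had the steepest change of the ligands. In choroid its level was 13.7, 9.96 and 10.9 CPM in inputs 421, 953 and 960 and 192.9, 157.9 and 146.5 CPM in positives. In retina it was 0.482, 0.781 and 0.956 CPM in inputs, which rests on 7 to 17 counts a library, and 41.9, 27.9 and 19.7 CPM in positives. Brain inputs had 2.02, 1.48 and 1.74 CPM and brain positives 59.7, 71.1 and 45.3 CPM. No positive library overlapped an input of its tissue, and choroid stood highest in both fractions. The log2 ratio was 3.86 ± 0.21 in choroid (adjusted p = 4.43e-05), 5.33 ± 0.37 in retina (1.33e-05) and 5.25 ± 0.26 in brain (4.11e-05). Brain inputs held 57.5, 36.5 and 14 counts, and in retina and brain the gene was listed through its positive fraction alone.

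Jag1, a ligand also made by mural, glial and epithelial cells (chromosome 2, 137081451 to 137116520), separated the brain from the other tissues. Its choroid levels were 53.6, 60.6 and 61.9 CPM in inputs and 65.1, 45.1 and 45.8 CPM in positives. Its retina levels were 246, 229 and 229.3 CPM in inputs and 294.1, 250.6 and 169.5 CPM in positives. Brain inputs had only 8.63, 9.73 and 6.22 CPM, and brain positives had 35.6, 48.1 and 32.5 CPM. The fractions overlapped in choroid and retina and stood apart in brain. The log2 ratio was 2.41 ± 0.24 in brain (adjusted p = 0.000428), against -0.15 ± 0.20 in choroid (adjusted p = 0.572) and 0.06 ± 0.18 in retina (0.811). Brain input 960 held 49.5 counts of Jag1, just under the listing minimum, so its brain listing came from the positive fraction. Retina inputs were the highest of the 3 input groups for this gene, and retina positives the highest of the positives.

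Jag2, the second Jagged ligand (chromosome 12, 112908590 to 112929495), was higher in every positive group. Choroid inputs had 22.9, 13.8 and 13.2 CPM and choroid positives 158.6, 61.1 and 94.5 CPM. Retina inputs had 37.7, 38.4 and 43.2 CPM and retina positives 207.6, 138.1 and 86.8 CPM. Brain inputs had 42.4, 43.7 and 21.6 CPM and brain positives 166.3, 195.5 and 134.9 CPM. The fractions did not overlap, although choroid and retina positives each spread more than 2-fold. Log2 ratios were 2.67 ± 0.38 in choroid (adjusted p = 0.000934), 1.90 ± 0.27 in retina (0.00119) and 2.39 ± 0.30 in brain (0.0012).

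Notch4, the receptor known for expression in endothelium (chromosome 17, 34564295 to 34588543), had ratios close to those of Dll4. Choroid inputs had 41.4, 16.0 and 23.4 CPM, and choroid positives had 378.6, 228.1 and 302.8 CPM. Retina inputs had 1.58, 2.49 and 2.25 CPM and retina positives 125.7, 74.7 and 59.9 CPM. Brain inputs had 6.54, 6.39 and 8.70 CPM and brain positives 157.2, 196.2 and 132.3 CPM. The fractions were fully separate in each tissue. Log2 ratios were 3.51 ± 0.37 in choroid (adjusted p = 0.000245), 5.38 ± 0.33 in retina (6.24e-06) and 4.70 ± 0.24 in brain (4.12e-05). Retina inputs held 22.6, 50.8 and 40.4 counts, so the retina listing of Notch4 came from the positive fraction alone.

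Notch1, the receptor used by many cell types (chromosome 2, 26457902 to 26503822), had smaller ratios. Choroid inputs had 87.6, 54.2 and 54.4 CPM and choroid positives 195.7, 171.5 and 116.4 CPM. Retina inputs had 46.6, 43.2 and 45.9 CPM, and retina positives 156.4, 98.2 and 56.5 CPM. Brain inputs had 29.1, 32.6 and 23.3 CPM and brain positives 83.5, 93.6 and 61.6 CPM. The fractions did not overlap in any of the 3 tissues, but retina positive 960 lay close to its inputs. Log2 ratios were 1.32 ± 0.26 in choroid (adjusted p = 0.00468), 1.24 ± 0.30 in retina (0.0155) and 1.68 ± 0.22 in brain (0.00132). The retina call was lost without any 1 input (adjusted p = 0.0525 without 421, 0.061 without 953 and 0.0575 without 960) or without positive 953 (0.0584), with log2 ratios of 1.21 to 1.30. Without positive 421 the ratio was 0.80 (0.0105).

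Notch2, a receptor prominent outside the endothelium (chromosome 3, 98013538 to 98150367), went the other way in choroid. Choroid inputs had 257.5, 204.7 and 171.5 CPM and choroid positives 97.9, 75.1 and 79.4 CPM. Retina inputs had 45.6, 42.8 and 51 CPM, against 37.4, 36.4 and 40.0 CPM in positives. Brain inputs had 33.6, 32.2 and 18.2 CPM, against 22.4, 25.8 and 22.2 CPM in positives. All choroid positives lay below all choroid inputs, and the log2 ratio there was -1.31 ± 0.20 (adjusted p = 0.00135). In retina the positives also lay below the inputs, but the ratio of -0.25 ± 0.12 was not called (adjusted p = 0.14), and in brain it was -0.07 ± 0.25 (0.84). Without brain input 960, the lowest of the brain inputs, the brain value was -0.30 (adjusted p = 0.0399).

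Rbpj, the DNA-binding partner of the receptor's intracellular domain (chromosome 5, 53555779 to 53657445), lay between 22.6 and 72.3 CPM in all 18 libraries. Its levels were 68.5, 55.7 and 47.2 CPM in choroid inputs and 72.3, 66.7 and 53.6 CPM in choroid positives. They were 55.4, 53.5 and 54.8 CPM in retina inputs and 47.5, 42.7 and 41.9 CPM in retina positives. Brain inputs had 43.1, 39.7 and 22.6 CPM and brain positives 48.4, 42.1 and 40.3 CPM. Log2 ratios were 0.19 ± 0.21 in choroid (adjusted p = 0.482), -0.27 ± 0.11 in retina (0.0886) and 0.49 ± 0.25 in brain (0.156). None of these was called. In retina the positives lay below the inputs, and without positive 421 the ratio was -0.32 (adjusted p = 0.0275).

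Hes1, a repressor that is a direct target in many tissues and also responds to other signals (chromosome 16, 30065357 to 30067796), was most abundant in choroid. Choroid inputs had 96.1, 126.3 and 124.8 CPM and choroid positives 439, 633.3 and 479.5 CPM. Retina inputs had 11.4, 16.9 and 15.0 CPM and retina positives 30.4, 24.8 and 17.0 CPM. Brain inputs had 10.2, 10.6 and 33.3 CPM and brain positives 45.5, 56.2 and 35.4 CPM. Choroid fractions were widely apart, whereas retina positive 960 lay just above retina input 953 and brain positive 960 just above brain input 960. The log2 ratio was 2.18 ± 0.21 in choroid (adjusted p = 0.000198), 0.77 ± 0.24 in retina (0.0381) and 1.56 ± 0.50 in brain (0.0434). The choroid call held under all 12 alternatives run. The retina value no longer passed on leaving out input 421 (0.63, adjusted p = 0.131), input 953 (0.91, 0.0638), input 960 (0.80, 0.104), positive 421 (0.55, 0.0755), positive 953 (0.77, 0.11), or both libraries of 421 (0.42, 0.207), nor with all 18 libraries in 1 fit (0.73, 0.18). In brain it was lost with the replicate number as a block (1.77, adjusted p = 0.0605), without input 421 (1.27, 0.102), input 953 (1.28, 0.106), positive 421 (1.56, 0.108), positive 953 (1.32, 0.174) or positive 960 (1.72, 0.0742), and without both libraries of 421 (1.26, 0.197). Without input 960 it was 2.33 (8.65e-05). The leukocyte sums given above were higher in the positives of all 3 tissues, as Hes1 was, and their part in its level was not tested.

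Hey1, a target gene known for expression in endothelium (chromosome 3, 8663359 to 8667038), followed another order. Choroid inputs had 21.7, 13.9 and 16.1 CPM and choroid positives 84.96, 72.7 and 58.9 CPM. Retina inputs had 16.5, 15.2 and 15.0 CPM and retina positives 50.8, 37.7 and 28.0 CPM. Brain inputs already had 59.4, 61.4 and 88.4 CPM, and brain positives 85.1, 109.3 and 77.5 CPM. The fractions were separate in choroid and retina and overlapped in brain, where input 960 lay above positives 421 and 960. Log2 ratios were 2.09 ± 0.24 in choroid (adjusted p = 0.000386), 1.36 ± 0.21 in retina (0.00176) and 0.57 ± 0.22 in brain (0.0834). Without brain input 960 the brain ratio was 0.78 (adjusted p = 0.00303).

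In retina the positive levels of Dll4, Jag1, Jag2, Notch1, Notch4, Rbpj, Hes1 and Hey1 all stood in the same order, 421 above 953 above 960. The summed endothelial markers had that order too, with 5372, 3672 and 2864 CPM. The summed rod markers had the reverse order, with 24750, 32430 and 39960 CPM. The part of this spread in the members' values was not tested. Within each library Hey1 kept a near constant distance from the endothelial median, at -2.06, -2.02 and -2.13 log2 units in retina positives 421, 953 and 960, and Notch4 stood at -0.76, -1.03 and -1.03. Notch1 stood at -0.44, -0.64 and -1.12. Notch2 (-2.50, -2.07 and -1.61) and Rbpj (-2.16, -1.84 and -1.55) went the opposite way, with 421 the lowest relative to the markers.

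**Figure D2:**
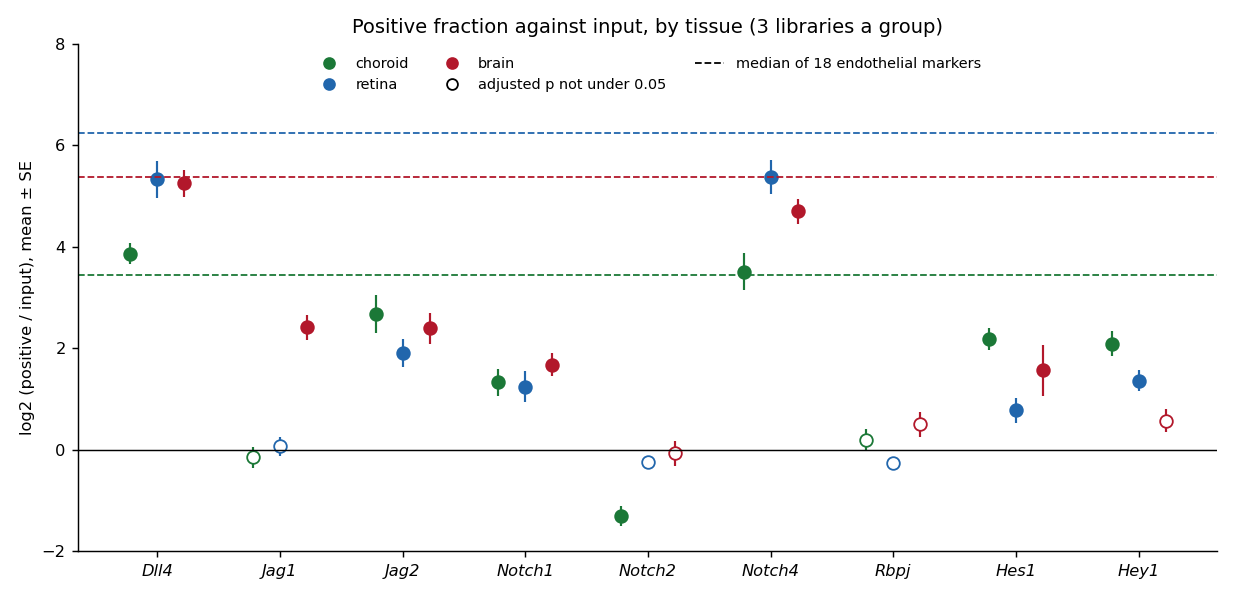
Log2 ratio of positive fraction to input for each Notch gene in choroid, retina and brain, with standard errors from 3 libraries a group. Filled points have an adjusted p under 0.05, and dashed lines give the median ratio of 18 endothelial markers in each tissue (3.43, 6.25 and 5.37). Dll4 and Notch4 lie above the marker median in choroid and below it in retina and brain, Notch2 in choroid is below 0, and the other members lie below the dashed line of their tissue.

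The ratios were then compared between tissues, which asks whether enrichment itself differed. In choroid against retina, enrichment was lower for Dll4 by -1.44 ± 0.41 (adjusted p = 0.014), Notch4 by -1.85 ± 0.48 (0.008) and Notch2 by -1.03 ± 0.29 (0.0125). It was higher for Hes1 by 1.43 ± 0.51 (0.0444). Dll4 and Notch4 were listed in retina only through the positive fraction. Their differences thus draw on ratios that the listing favoured and are descriptions only. Of all genes 18% had a lower and 10.9% a higher ratio in this comparison. Endothelial markers moved the same way as Dll4 and Notch4, with 15 of 18 lower and 1 higher (median -2.87). Dll4 and Notch4 thus fell by less than the marker median. Without every library of 421 the 3 lower calls were lost, at -0.85 for Dll4 (adjusted p = 0.189), -1.03 for Notch4 (0.114) and -0.95 for Notch2 (0.111). The Hes1 call was lost with the replicate block (1.44, adjusted p = 0.0515), with scaling by library size only (1.17, 0.074) and without any 1 of 11 single libraries, with adjusted p from 0.0505 to 0.103.

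In choroid against brain, enrichment was lower for Jag1 by -2.38 ± 0.31 (adjusted p = 3.98e-05), Dll4 by -1.21 ± 0.37 (0.0253) and Notch2 by -1.06 ± 0.28 (0.0122), and higher for Hey1 by 1.69 ± 0.33 (0.0013). The background was 12.3% lower and 12.2% higher. Of 18 endothelial markers, 15 were lower and 0 higher there (median -1.87). The Dll4 call was lost without brain input 953 (-1.08, adjusted p = 0.0646) or brain positive 953 (-1.05, 0.0689). Dll4 and Jag1 were listed in brain only through the positive fraction, so differences of both against brain are descriptions only. In retina against brain, Jag1 was lower by -2.20 ± 0.31 (adjusted p = 0.000237), where 4.97% of genes were called lower and 8.33% higher. Of the 18 markers, 5 were higher and 3 lower in that comparison (median 0.88). Hes1 was not called there (-0.65 ± 0.51, adjusted p = 0.424), but without brain input 960 its value was -1.64 (0.00343). In the same comparison Hey1 stood at 0.93 ± 0.32 (adjusted p = 0.0659), and was called by DESeq2 (0.92, 0.0423) and without retina positive 960 (1.13, 0.0241).

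Other differences in enrichment passed only under some alternatives. Notch4 in choroid against brain stood at -1.02 ± 0.45 (adjusted p = 0.11), and was called with scaling by library size only (-1.36, 0.0343) and without choroid input 953 (-1.28, 0.0461), choroid positive 421 (-1.39, 0.046) or brain input 960 (-1.35, 0.0428). Hey1 in choroid against retina stood at 0.76 ± 0.33 (adjusted p = 0.0997), and was called without choroid input 421 (1.00, 0.0468), retina positive 421 (1.00, 0.0346) or brain input 960 (0.80, 0.0474). Rbpj in retina against brain stood at -0.61 ± 0.28 (adjusted p = 0.162), and was called without choroid input 421 (-0.83, 0.0483) or brain input 960 (-0.62, 0.0478). Choroid input 421 is in neither group of that comparison. Leaving it out moved the median difference of all genes there from 0.197 to -0.007. In choroid against brain, library size scaling moved that median from 0.075 to -0.259, while leaving out choroid input 953 gave 0.068. The part of such shifts in these calls was not tested.

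These differences depend on how positive libraries are scaled, and the levels of the endothelial markers were unequal between them. The median log2 CPM of the 18 endothelial markers was 9.21 to 9.60 in choroid positives, 6.94 to 7.73 in retina positives and 8.32 to 8.89 in brain positives. The inputs were unequal as well. Choroid inputs 421, 953 and 960 had medians of 6.42, 5.71 and 5.98. Brain inputs had 3.62, 3.47 and 3.40, and retina inputs had 1.50, 1.42 and 1.46. What these input levels contributed to the enrichment differences was not tested. The reason for these unequal marker levels was not tested, and in bulk RNA fewer endothelial cells and less RNA per cell cannot be told apart. Scaling the positive libraries so that these markers agree moved the median difference of all genes from -0.07 to -2.21 in choroid against retina, from 0.08 to -0.73 in choroid against brain and from 0.20 to 1.54 in retina against brain. Inputs were left as they were, so by construction this scaling shifts the differences of all genes in a comparison together. With that shift the Hes1 difference between choroid and retina was -0.64 (adjusted p = 0.185), opposite in sign. Such a change of sign follows from the shift and says nothing particular about the gene. The lower enrichment of Jag1 in choroid than in retina then passed the test (-2.28, adjusted p = 1.01e-06), as 10114 of 10505 genes did.

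Levels in the positive fractions were compared directly between tissues under both scalings. Scaled over all genes, 5 members were higher and 1 lower in choroid than in retina, against 32.9% and 39.1% of all genes. In choroid against brain 6 members were higher, against 23.1% of genes, and in retina against brain 2 were higher and 4 lower, against 32.1% and 31%. Endothelial scaling moved the median of all genes to -2.09, -0.69 and 1.25 in these 3 comparisons, from -0.11, 0.03 and -0.01. The comparisons share libraries in pairs, so their values are given side by side only.

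Hes1 in choroid and Jag1 in retina stood out under both scalings. Hes1 was higher in choroid than in retina positives by 4.27 ± 0.27 (adjusted p = 4.56e-08), or 2.36 with endothelial scaling (1.18e-08). It was higher in choroid than in brain positives by 3.41 ± 0.26 (adjusted p = 3.42e-07), or 2.75 (2.45e-09). Jag1 was lower in choroid than in retina by -2.35 ± 0.25 (adjusted p = 2.92e-06), or -4.28 (1.16e-13). It was higher in retina than in brain by 2.69 ± 0.24 (adjusted p = 1.82e-06), or 3.93 (2.65e-12). Retina inputs had as much Jag1 as retina positives, and choroid inputs had more Hes1 than the inputs of the other tissues. Of 10 leukocyte and microglia markers, all 10 were higher in choroid than in retina positives, and 3 were higher and 2 lower in choroid than in brain positives. Their part in the Hes1 levels was not tested.

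Dll4 and Notch2 kept part of their order. Dll4 was higher in choroid than in brain by 1.41 ± 0.25 (adjusted p = 0.000578), or 0.73 with endothelial scaling (0.0397). Its excess over retina, 2.32 ± 0.27 (adjusted p = 6.03e-06), was 0.42 after endothelial scaling (0.182). Notch2 was higher in choroid than in brain by 1.76 ± 0.17 (adjusted p = 2.35e-06), or 1.04 (0.00686), and higher in retina than in brain by 0.77 ± 0.16 (0.00121), or 2.05 (1.06e-06). Between choroid and retina its sign flipped, from 0.99 ± 0.16 (adjusted p = 0.000142) to -1.01 (0.00393).

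For the remaining members the order of tissues rested on the scaling. Notch4 was higher in choroid than in retina by 1.64 ± 0.28 (adjusted p = 0.000173) and than in brain by 0.82 ± 0.27 (0.0268), but -0.24 (0.442) and 0.13 (0.725) with endothelial scaling. Hey1 was higher in choroid than in retina by 0.75 ± 0.23 (adjusted p = 0.0116) and -1.19 (0.000487) with endothelial scaling, a reversal. With scaling by library size only the Hey1 value was 0.53 (adjusted p = 0.0545). Between choroid and brain Hey1 stood at -0.41 ± 0.23 (adjusted p = 0.158), or -1.12 (0.00237) with endothelial scaling. In retina against brain Dll4 (-0.91 ± 0.26), Notch4 (-0.83 ± 0.27), Hes1 (-0.86 ± 0.24) and Hey1 (-1.16 ± 0.23) were lower, with adjusted p of 0.00768, 0.0185, 0.00816 and 0.000748. With endothelial scaling the 4 values lay between 0.07 and 0.39 and were not called. Notch1 (0.93 ± 0.32, adjusted p = 0.0281) and Rbpj (0.47 ± 0.16, 0.0314) were higher in choroid than in brain, and endothelial scaling gave 0.23 (0.528) and -0.25 (0.512). These 2 calls and that of Notch4 in the same comparison were also lost with scaling by library size only (adjusted p = 0.0601, 0.16 and 0.0638) and without any 1 of several libraries, with adjusted p of up to 0.107 for Notch1, 0.123 for Rbpj and 0.104 for Notch4. The Notch4 call between retina and brain was lost without retina positive 953 (-0.73, adjusted p = 0.0773), retina positive 960 (-0.62, 0.0735) or brain positive 953 (-0.65, 0.0868). Jag2 was not called in any of the 3 comparisons scaled over all genes, with -0.61 ± 0.34 (adjusted p = 0.126), -0.74 ± 0.34 (0.0938) and -0.13 ± 0.34 (0.75). With endothelial scaling it was -2.52 (1.42e-08), -1.45 (0.000331) and 1.06 (0.00321). Without choroid positive 421, its highest choroid library, Jag2 was called lower in choroid than in retina (-1.07, adjusted p = 0.0138) and in brain (-1.20, 0.0118).

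**Figure D3:**
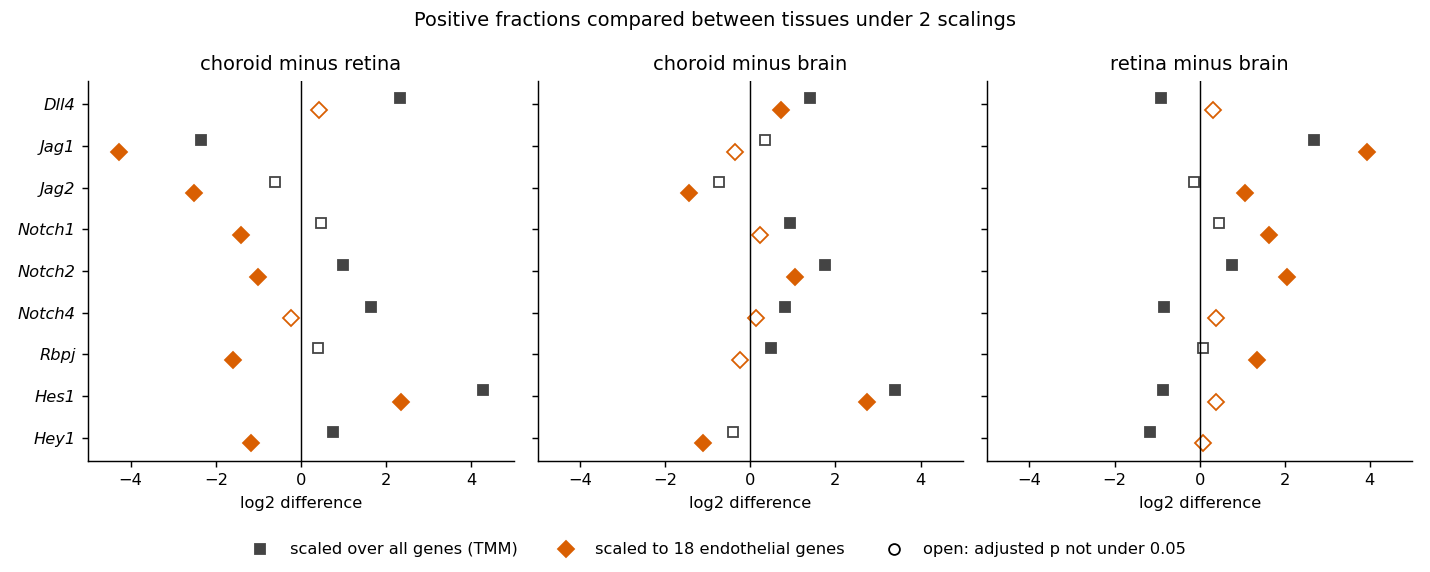
Log2 difference of each Notch gene between the positive fractions of 2 tissues, scaled over all genes (squares) or to 18 endothelial genes (diamonds), with filled symbols for an adjusted p under 0.05. Hes1 stays to the right in both comparisons with choroid, and Jag1 stays on the retina side in both comparisons with retina. Endothelial scaling places every member lower in both comparisons with choroid and higher in retina against brain.

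Ratios between members within a library do not depend on library scaling. Per kilobase of merged exons, Dll4 made up 65.0% ± 5.91 (SD, n = 3) of the 3 ligands in choroid positives, 33.3% ± 1.12 in brain positives and 11% ± 0.81 in retina positives. Jag1 made up 59.7% ± 3.79 in retina positives, against 13.3% ± 0.10 in choroid and 14.6% ± 1.01 in brain. Jag2 led in brain positives with 52.2% ± 0.85. In inputs Jag1 made up 87.2% ± 1.25 in retina and 65.3% ± 6.96 in choroid, and Jag2 made up 72.6% ± 4.65 in brain. The leading ligands of retina and brain positives thus led the inputs too, with larger shares there. Dll4 made up 19.3% ± 2.55 in choroid inputs, 7.0% ± 2.63 in brain inputs and 0.4% ± 0.12 in retina inputs. The ranges of the Dll4 share did not overlap between tissues, running from 59.6% to 71.3% in choroid, 32% to 34.1% in brain and 10.3% to 11.9% in retina.

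Among the 3 receptors, Notch4 led every positive group, with 65.9% ± 5.58 in choroid, 49.5% ± 2.26 in retina and 72.0% ± 1.05 in brain (SD, n = 3). In inputs Notch2 led instead, with 71.6% ± 4.49 in choroid, 55.6% ± 1.70 in retina and 46.6% ± 7.31 in brain, although in brain the lowest Notch2 share (38.3%) was only just above the highest Notch1 share (37.7%). With the longest transcript as length, Notch1 led the brain and retina inputs, with 44.3% and 50.1%. The leading ligand and receptor of each positive group were the same with either length. Per kilobase of merged exons, Hes1 had the highest level of any member, 253.9 ± 50.3 CPM per kilobase in choroid positives. It was followed there by Dll4 with 43.0 ± 6.28 and Notch4 with 37.6 ± 9.33, whose ranges overlapped. By this length Dll4 was above Notch4 in each of the 3 libraries. By the longest transcript Notch4 was above Dll4 in 421 (57.4 against 51.5) and 960 (45.9 against 39.1), and below it in 953 (34.6 against 42.1). The order of these 2 genes thus rests on the length used. In brain positives Hey1 had 27.8 ± 5.08, Jag2 23.8 ± 4.35, Hes1 22.4 ± 5.13 and Notch4 20.1 ± 4.00 CPM per kilobase. The ranges of these neighbours overlapped between libraries, while within each of the 3 libraries they stood in this same order. By the longest transcript this order did not hold in brain positive 953, where Hes1 had 38.31 and Jag2 38.29. In retina positives Jag1 led with 40.9 ± 10.9, ahead of Jag2 with 20.7 ± 8.71 CPM per kilobase.

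**Figure D4:**
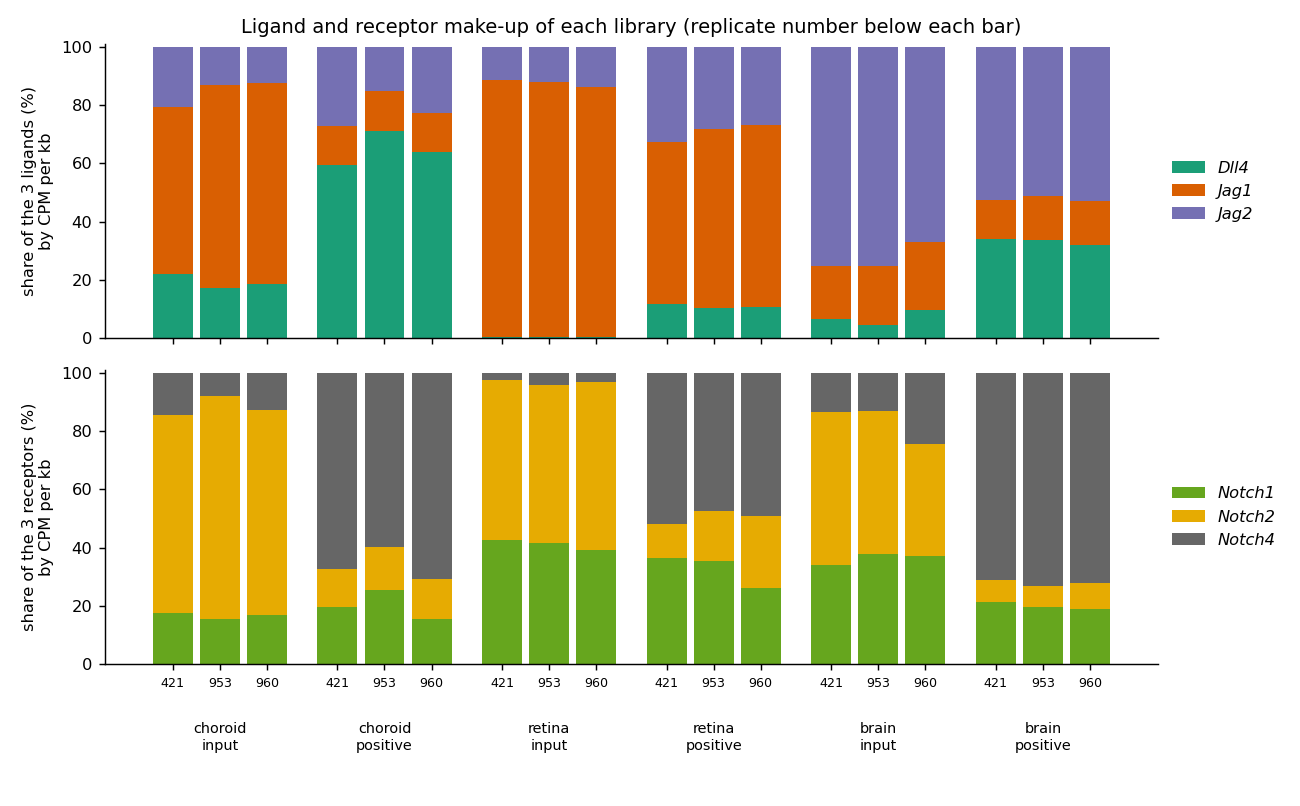
Share of each of 3 ligands (top) and 3 receptors (bottom) in the 18 libraries, in percent of their summed CPM per kilobase of merged exons, 1 bar a library. In positive fractions Dll4 fills most of the choroid ligand bars, Jag1 most of the retina bars and Jag2 about as much as the others together in brain. Notch4 holds 2.6% to 24.6% of the receptor bar in inputs and is the largest receptor part of every positive library.

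For each member, the genes with the most similar profile over the 18 libraries were listed among 10448 genes, by the root mean square difference of centred log2 CPM. Notch4 was among the 3 genes nearest to Dll4 (0.41), with Tmem204 (0.38) and Clec14a (0.43), and Dll4 was among the 3 nearest to Notch4, with Acvrl1 (0.36) and Sigirr (0.42). Over the 6 group means in place of the libraries, Notch4 was again among the 3 nearest to Dll4 (0.34), but the 3 nearest to Notch4 were Acvrl1, Sigirr and Cd93. Hey1 was nearest to Paqr7 (0.36) and Unc5b (0.40), and Hes1 to Ms4a6c (0.39), Ripply3 (0.51) and Bambi (0.53). The genes nearest to Notch2 were Myo7a (0.27), Prelp (0.34) and Tgfb3 (0.34), and Jag1 was nearest to Slc31a2 (0.38) and Galnt4 (0.48). Notch1 was closest to Fpgs (0.34) and Rbpj to Sec63 (0.15), while Jag2 had no closer gene than H2-T24 (0.56). The nearest gene stayed the same over the group means for Jag1, Jag2, Notch2, Notch4 and Hes1, and became Myct1 for Dll4, Sbno2 for Notch1, Cutc for Rbpj and Klhl4 for Hey1.

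The rest of the pathway was taken from a list of 55 other genes, of which 52 were listed in at least 1 table. Of 49 measured in choroid, 14 were called higher and 8 lower (median log2 ratio 0.15), where the background was 21.1% and 20.9%. Of 48 in retina, 12 were called higher and 3 lower (median 0.09), where it was 18% and 13.7%. Of 52 in brain, 16 were called higher and 7 lower (median 0.13), where it was 21.2% and 18.3%. With libraries left out, choroid had 8 to 14 higher and 5 to 8 lower. Retina then had 8 to 15 higher and 2 to 7 lower, and brain had 7 to 25 higher and 0 to 20 lower. Egfl7, a secreted endothelial protein that antagonises Notch and was also among the endothelial markers, rose by 3.73 ± 0.25 in choroid, 4.84 ± 0.30 in retina and 4.28 ± 0.29 in brain (adjusted p = 5.82e-05, 6.91e-06 and 7.21e-05). Mfng, a fringe glycosyltransferase that alters which ligands a receptor answers, rose by 2.97 ± 0.29, 2.23 ± 0.15 and 4.47 ± 0.22 (adjusted p = 0.000199, 1.24e-05 and 4.11e-05). Its sister Lfng rose in choroid (2.26 ± 0.27, adjusted p = 0.000396) and in brain (1.00 ± 0.21, 0.0105), where the call was lost without both libraries of 421 (1.05, 0.0984), and stood at 0.28 ± 0.17 in retina.

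Of the proteases, Adam17, one of the enzymes that can shed Notch receptors, rose by 0.84 ± 0.20 in choroid, 0.71 ± 0.13 in retina and 1.75 ± 0.21 in brain (adjusted p = 0.0102, 0.00378 and 0.000881). The choroid value lay between 0.61 and 0.97 over its 12 alternatives, with an adjusted p of up to 0.0534. Furin, which cuts the receptor during maturation, rose in retina (0.63 ± 0.13, adjusted p = 0.00773) and brain (1.50 ± 0.21, 0.00165) and stood at -0.22 ± 0.17 in choroid. Adam10, the main sheddase of ligand-bound Notch, had 0.56 ± 0.10 in retina (adjusted p = 0.00314), 0.71 ± 0.18 in brain (0.0199) and 0.37 ± 0.23 in choroid (0.224). The Adam10 call was lost in retina with all 18 libraries in 1 fit (0.0559), and in brain without input 953 (0.0548), positive 421 (0.0784), positive 953 (0.0758) or both libraries of 421 (0.164). In the nuclear complex group 4 of 14 were higher and 2 lower in choroid, and the acetyltransferase gene Kat2b fell there by 1.45 ± 0.19 (adjusted p = 0.000694). The co-repressor gene Ncor1 had 0.54 ± 0.19 in choroid (adjusted p = 0.0478), a call that 7 of 12 alternatives lost (0.31 to 0.67, adjusted p of up to 0.187), and was not called in retina (0.02 ± 0.10) or brain (-0.30 ± 0.19). Kat2b had -0.30 ± 0.12 in retina and -0.25 ± 0.13 in brain, neither called.

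The ubiquitin ligases and glycosyltransferases of the pathway moved in both directions. Dtx3l, a Deltex family ligase that is also induced by interferon, rose by 2.20 ± 0.27 in retina (adjusted p = 0.000434) and 2.61 ± 0.35 in brain (0.00143). Mib1, a ligase for ligand uptake, had -0.59 ± 0.10 in retina (adjusted p = 0.00314), but 1 fit of all 18 libraries did not call it (-0.63, 0.385). Mib1 had -1.03 ± 0.41 in choroid and -0.93 ± 0.63 in brain, with adjusted p of 0.0705 and 0.283. Rfng, the third fringe enzyme, fell by 1.15 ± 0.20 in choroid (adjusted p = 0.00224) and rose by 0.53 ± 0.11 in retina (0.00704). Neurl1b, another ligase for ligands, had -0.85 ± 0.17 in brain (adjusted p = 0.00804), a call lost without both libraries of 421 (-0.83, 0.135).

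Of 4 other target genes measured in choroid, Nrarp and Hey2 were higher and Heyl lower. Nrarp, a feedback inhibitor that Notch induces, had 17.1, 11.9 and 20.5 CPM in choroid inputs and 143.8, 109 and 76.0 CPM in choroid positives. Its log2 ratio was 2.75 ± 0.30 there (adjusted p = 0.000296), against 0.38 ± 0.24 in retina and 0.22 ± 0.17 in brain, which were not called. Without brain input 960 the brain value of Nrarp was 0.38 (adjusted p = 0.006). Hey2, whose promoter is printed above, had 1.36 ± 0.38 in choroid (adjusted p = 0.0213), but 0.72 (0.159) without both libraries of 421, and the call was also lost without input 421 (0.0633), input 953 (0.069) or positive 421 (0.0695). In retina and brain Hey2 stood at -0.24 ± 0.18 and -0.11 ± 0.19. Heyl had -1.97 ± 0.64 (adjusted p = 0.0369) and was not called without any 1 of 5 libraries, with adjusted p of up to 0.11, and in brain it stood at -0.38 ± 0.26, or -0.57 (0.0193) without input 960. Hes5, a target in neural progenitors, had -0.77 ± 0.20 in brain (adjusted p = 0.0192), a call lost without input 421 (0.0606), input 953 (0.0785), positive 421 (0.0819) or both libraries of 421 (-0.65, 0.253), and -0.38 ± 0.18 in retina (0.142).

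Notch3, the mural cell receptor, which was also on the mural marker list, followed 1 library. Retina positives had 68.6, 8.77 and 8.20 CPM and retina inputs 6.13, 4.54 and 4.499 CPM. Its retina ratio of 2.53 ± 0.76 (adjusted p = 0.0347) was 0.79 (0.0272) without positive 421, the library with the highest mural sum. That call held, but leaving out an input ended it, with adjusted p of 0.0833 without 421, 0.108 without 953 and 0.11 without 960. With the replicate block the ratio was 1.88 (0.00553). In choroid Notch3 had -1.85 ± 0.57 (adjusted p = 0.0293), a call lost without input 421 (0.084), positive 953 (0.0541) or positive 960 (0.0835) and with all 18 libraries in 1 fit (0.0519). In brain Notch3 had -0.46 ± 0.41 (adjusted p = 0.405), or -0.79 (0.0105) without input 960. Of the non-canonical ligands, Dlk1 rose in choroid (2.99 ± 0.44, adjusted p = 0.00114) and Dner, made by neurons, fell in all 3 tissues, by 2.23 ± 0.36 in choroid, 0.85 ± 0.13 in retina and 0.86 ± 0.17 in brain (adjusted p = 0.00166, 0.00215 and 0.00771). In brain Dlk1 had -0.73 ± 0.17 (0.0128), a call lost without input 421 (-0.62, 0.0507), positive 421 (-0.75, 0.057) or both (-0.64, 0.2). Dll1, the sister ligand of Dll4, stood at 0.78 ± 0.48 in choroid (adjusted p = 0.223), or 0.71 (0.0102) with the replicate block, and was not called in retina (0.01 ± 0.20) or brain (0.44 ± 0.29). Without brain input 960 the brain value of Dll1 was 0.70 (adjusted p = 0.021). The brain call of Dner was lost without both libraries of 421 (-0.89, adjusted p = 0.117).

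**Figure D5:**
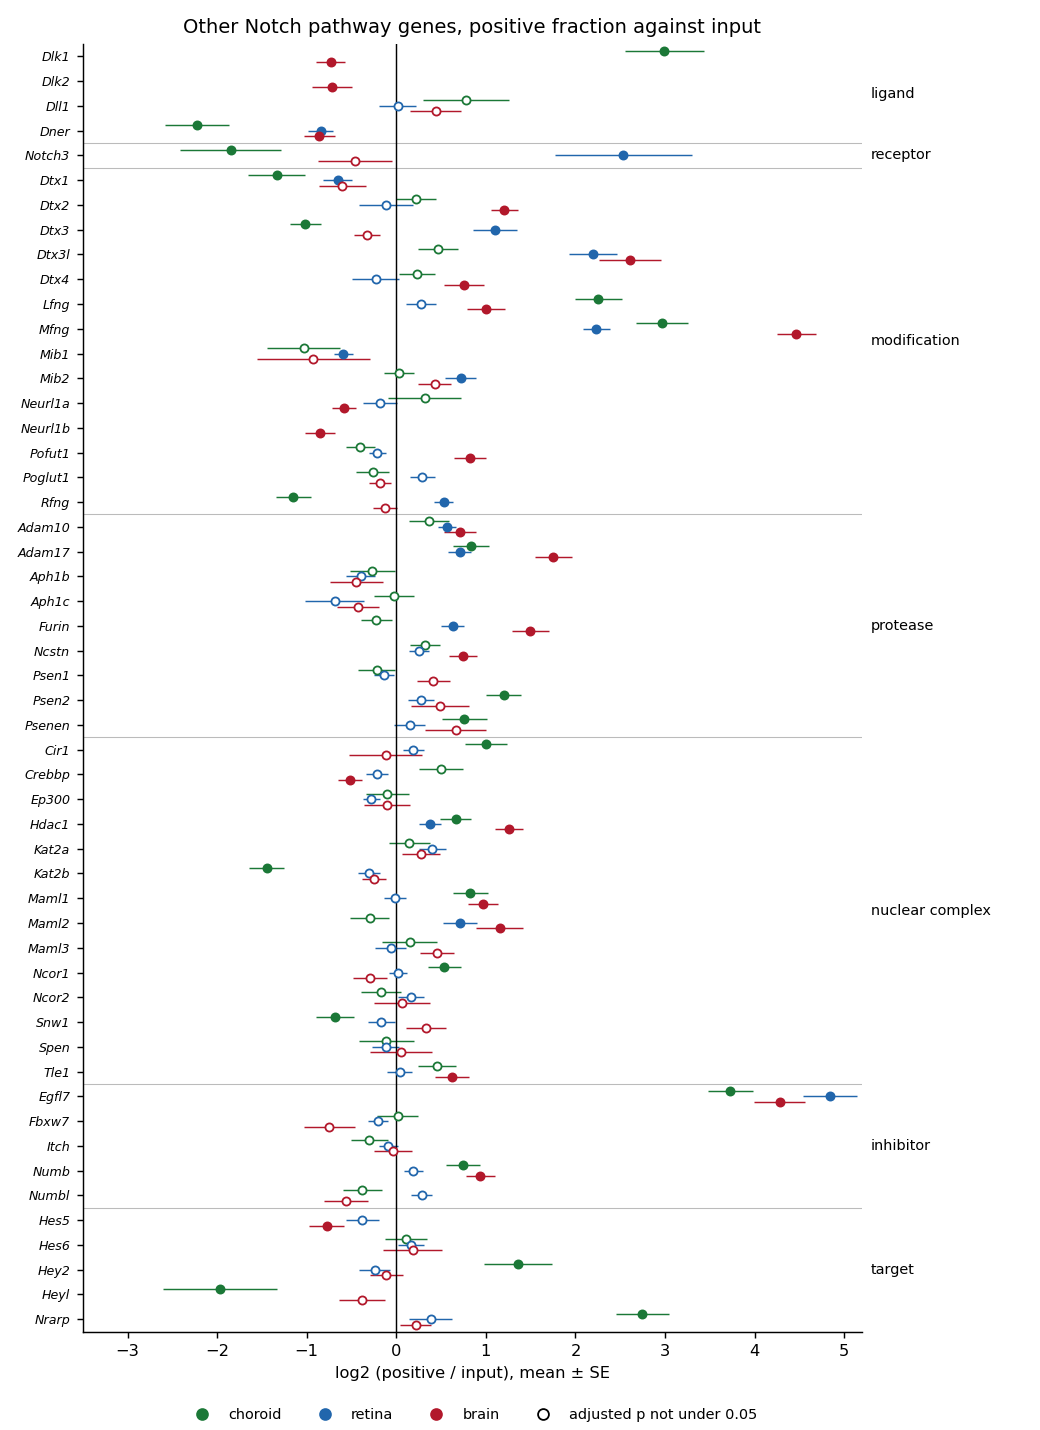
Log2 ratio of positive fraction to input, with standard errors, for the 52 other Notch pathway genes that were listed, grouped by role. Filled points have an adjusted p under 0.05. Egfl7 and Mfng lie to the right in all 3 tissues, Nrarp and Dlk1 lie far to the right in choroid, and Dner lies to the left in all 3.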

How the data were processed

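The authors deposited 1 table for each tissue, with expected counts per gene and library that are mostly not whole numbers and were rounded here before fitting. Those tables also hold deposited log2 columns, each a raw value over a library factor relative to its tissue's median input, which were not used further. Per the file headers, listing required a raw value of 50 or more in every library of either the input or the positive fraction. The submitters' processing notes name mm10 and DESeq, without aligner or counter, and the strand setting of counting is unknown here.

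Enrichment was tested per tissue with edgeR 4.0.16 under R 4.3.3 (TMM factors, filterByExpr, quasi-likelihood F test with 4 residual degrees of freedom). P values were adjusted by Benjamini and Hochberg over every gene fitted, and 0.05 was the threshold. Differences between tissues in enrichment used 18 libraries (12 degrees of freedom) and positive fractions used 9 (6), both over 10505 genes. Standard errors are the log2 ratio divided by the square root of F. Alternatives were DESeq2 1.42.0, library size scaling, a mean of at least 10 CPM, a replicate block, libraries left out, all libraries in 1 fit and endothelial scaling. Gene lengths came from GENCODE M21. The fits were tested on simulated data with 200 changed genes.

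Per the labels' protocols each input was set aside from a sample's own lysate, so numbers pair the fractions of a tissue. Same-numbered deviations from group means correlated at 0.618, 0.213 and 0.463 in choroid, 0.085, 0.07 and -0.009 in retina and 0.173, 0.025 and 0.077 in brain. Fits had no block unless stated, so the main standard errors and adjusted p values leave that pairing out. With the replicate block, genes called higher and lower were 3223 and 3412 in choroid, against 2471 and 2451 without it. They were 2185 and 1701 in retina, against 2226 and 1696, and 2504 and 1663 in brain, against 2744 and 2359. The members and gene lists were chosen with earlier results of these data known. Other pathway genes named are, per tissue, the 3 called higher and 3 called lower with the smallest adjusted p, the 2 uncalled with the highest mean level, and Notch3, Dll1, Hes5, Hey2, Heyl, Nrarp, Lfng and Mfng. Not every gene under this rule is described, and some described genes are also given in tissues where the rule does not name them.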

Additional observations from a re-analysis of the deposited data

Results flagged for a closer look

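Enrichment of some members differed between tissues by a test of the difference itself (edgeR, 18 libraries, adjusted over 10505 genes). Of the 9 members, 1 was called higher and 3 lower in choroid minus retina. The counts were 1 and 3 in choroid minus brain, and 0 and 1 in retina minus brain. Between choroid and retina the log2 difference was -1.44 for Dll4, -1.03 for Notch2, -1.85 for Notch4 and 1.43 for Hes1. Between choroid and brain it was -1.21 for Dll4, -2.38 for Jag1, -1.06 for Notch2 and 1.69 for Hey1. Between retina and brain it was -2.20 for Jag1. Dll4 and Notch4 in retina, and Dll4 and Jag1 in brain, were listed only through the positive fraction. Differences of these genes that involve those tissues draw on ratios that the listing favoured and are descriptions only. Of all genes, 10.9% were called higher and 18% lower between choroid and retina. The shares were 12.2% and 12.3% between choroid and brain, and 8.33% and 4.97% between retina and brain. These comparisons share libraries in pairs. Without every library of replicate 421, the choroid and retina calls of Dll4, Notch2 and Notch4 were lost. The Hes1 call was lost in 14 of 24 alternatives and its value changed sign in 1 more. The Dll4 call between choroid and brain was lost in 2 of 24. The other calls held in all 24. No group of 3 libraries was searched for single outlying values.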

How the results depend on the processing

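Over 81 values of members and 1377 alternatives, 1230 kept direction and side of the threshold, 61 lost the call, 42 gained one and 44 changed sign. All choroid enrichment calls of members held. The replicate block left no member called higher in choroid minus retina enrichment (0 against 1) and called 1 lower in choroid minus brain positives; among member enrichments it ended only the brain Hes1 call. Replicate numbers were not shown to pair positives between tissues, where the block called Jag2 (-0.83) and Notch1 in choroid against retina (0.54). DESeq2 called 1 member higher in retina minus brain enrichment. The fit of all 18 libraries called 1443 genes higher and 676 lower in retina, and gave -0.029 for Dll1 there. Library size scaling gave -0.034 for choroid Rbpj and -0.14 for Notch1 in choroid minus retina enrichment, with 580 genes and 0 members called higher; in choroid minus brain enrichment it called 547 genes higher and 2196 lower. In positives it called 2 members lower in choroid minus retina, and 3 higher and 1 lower in choroid minus brain.

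Endothelial scaling called 14 genes higher and 10114 lower in choroid minus retina enrichment (0 and 8 members), 157 and 3627 in choroid minus brain (6 members lower) and 9127 and 62 in retina minus brain (6 members higher). In positives it called 330 and 8805 (1 and 6 members), 485 and 4545 (3 and 2) and 7426 and 251 (5 and 0). Enrichment differences that changed sign were, in choroid minus retina, Jag2 -1.26, Notch1 -1.94, Rbpj -1.66, Hes1 -0.64 and Hey1 -1.34; in choroid minus brain, Jag2 -0.34; in retina minus brain, Jag2 0.92, Notch1 0.96, Notch2 1.33, Rbpj 0.72 and Hes1 0.68. In positives they were, in choroid minus retina, Notch1 -1.40, Notch2 -1.01, Notch4 -0.24, Rbpj -1.60 and Hey1 -1.19; in choroid minus brain, Jag1 -0.36 and Rbpj -0.25; in retina minus brain, Dll4 0.31, Jag2 1.06, Notch4 0.38, Hes1 0.39 and Hey1 0.070. By construction this scaling changes the positive libraries only and shifts all genes of a comparison together, so these changes of sign follow mostly from that shift.

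With libraries left out, choroid enrichment had 1609 to 2575 genes called higher and 1646 to 2498 lower, retina had 1292 to 3095 and 586 to 2653, and brain had 1502 to 4670 and 215 to 4642. Members called lower ran from 0 to 1 in retina and in brain, and higher from 4 to 6 and from 5 to 7. For enrichment differences, genes called higher and lower ran from 499 to 1863 and 931 to 2245 (choroid minus retina), 622 to 1402 and 883 to 2077 (choroid minus brain) and 86 to 1047 and 187 to 1571 (retina minus brain). Members ran from 0 to 2 and 0 to 3, 1 to 1 and 2 to 4, and 0 to 1 and 1 to 3. In positives, members called higher ran from 3 to 6 and lower from 0 to 1 in choroid minus brain, and lower from 1 to 2 in choroid minus retina. Signs changed for brain Notch2 (-0.30 to 0.11), retina Jag1 (-0.12 to 0.28), retina Dll1 (-0.14 to 0.20) and brain Hey2 (-0.30 to 0.012); for enrichment differences of Hes1 (-0.17 to 1.07) and Jag2 (-0.16 to 0.60) in choroid minus brain, Notch1 in choroid minus retina (-0.19 to 0.66), and Dll4 (-0.48 to 0.47), Notch1 (-0.72 to 0.011) and Notch2 (-0.25 to 0.047) in retina minus brain; and for positive Jag2 in retina minus brain (-0.49 to 0.14). The cause of these changes was not tested. The depth of Dll4 in retina inputs limits its ratio.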
